A study of Mus musculus with 30 samples.

Results

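The Fc gamma receptors of mouse microglia, their signalling chain, the TAM receptors and the TAM ligands were examined together, as 10 of the 54532 genes in the deposited count table, taken by gene name. They comprised the Fc gamma receptors Fcgr1, Fcgr3, Fcgr4 and Fcgr2b with the gamma chain Fcer1g, the receptors Axl, Mertk and Tyro3, and their ligands Gas6 and Pros1. RNA-seq was performed on 30 libraries in 10 groups of 3, which crossed 5 ways of obtaining microglia from C57/B6 mice with a Control and an HMGB1 arm. HMGB1 (high-mobility group box 1) is a nuclear protein that acts as an alarm signal when it is released from cells, and it was given for 4 h. Its concentration, 1 µg/ml, was stated for Protocol 3 and not for the others. Protocol 1 used mixed glial cultures from pups at P0 to P3, each suspension from 5 mice, from which the microglia were shaken off and moved to serum-free medium. Protocol 1A held the cultures for 10 days with 0.5 ng/ml GM-CSF, Protocol 1B for 10 days without GM-CSF, and Protocol 1C for 21 days with 0.5 ng/ml GM-CSF. Protocol 2 used brains of mice aged 6 to 8 weeks, pooled from 3 animals, with selection by adherence and 7 days of culture in GM-CSF and M-CSF, each at 100 ng/ml. These cells were also moved to serum-free medium before treatment. Protocol 3 used mice aged 6 to 8 weeks and isolated the cells with CD11b beads, without a culture period before treatment. Age, isolation, culture time and growth factors changed together between Protocols 1, 2 and 3 and cannot be told apart.

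Fc gamma receptors bind the constant part of IgG on opsonised targets. The activating receptors Fcgr1 (high affinity), Fcgr3 and Fcgr4 signal through the ITAM of the gamma chain Fcer1g and the kinase Syk, whereas Fcgr2b carries an inhibitory ITIM and opposes them. Axl, Mertk and Tyro3 are receptor tyrosine kinases that recognise phosphatidylserine on dying cells through the bridging proteins Gas6 and protein S (Pros1), and microglia use Axl and Mertk to clear apoptotic cells.

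All 10 genes lay on the autosomes, with 4 of the 5 Fc receptor genes on chromosome 1 (Fcgr2b, Fcgr4, Fcgr3 and Fcer1g, between 170958617 and 171234365) and Fcgr1 on chromosome 3 (96282909 to 96293969). In the deposited positions Axl spanned 25757273 to 25788705 on chromosome 7, Mertk 128698956 to 128802894 and Tyro3 119797733 to 119818104 on chromosome 2, Gas6 13465374 to 13494490 on chromosome 8, and Pros1 62854307 to 62929346 on chromosome 16. The sources used here did not name the build, but 98.3% of the gene identifiers shared with GENCODE M21 (GRCm38), including all 10 genes, had the same positions. Promoters are shown for the 3 activating receptors, of which Fcgr4 and, outside Protocol 1A, Fcgr1 rose and Fcgr3 fell with HMGB1 in neonate-derived cultures, and for Axl and its ligand Gas6, which moved in opposite directions there. Each sequence is the 250 bases before the RefSeq transcript start in GRCm38.p6, read 5′ to 3′ on the gene's strand, and capitals mark matches on either strand to the motifs described after them. The windows were chr3:96293970-96294219 (minus strand) for Fcgr1, chr1:171018676-171018925 (plus) for Fcgr4, chr1:171059404-171059653 (minus) for Fcgr3, chr7:25788734-25788983 (minus) for Axl and chr8:13494536-13494785 (minus) for Gas6.
Fcgr1: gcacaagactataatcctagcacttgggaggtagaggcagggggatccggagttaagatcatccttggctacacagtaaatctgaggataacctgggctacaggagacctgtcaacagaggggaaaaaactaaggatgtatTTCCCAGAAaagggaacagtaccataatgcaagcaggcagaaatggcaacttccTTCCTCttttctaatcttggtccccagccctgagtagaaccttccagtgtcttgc
Fcgr4: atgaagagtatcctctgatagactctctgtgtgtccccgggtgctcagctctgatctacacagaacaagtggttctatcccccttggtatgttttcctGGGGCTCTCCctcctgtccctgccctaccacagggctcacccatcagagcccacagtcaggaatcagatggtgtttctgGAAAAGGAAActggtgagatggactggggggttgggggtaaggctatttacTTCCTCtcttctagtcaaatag
Fcgr3: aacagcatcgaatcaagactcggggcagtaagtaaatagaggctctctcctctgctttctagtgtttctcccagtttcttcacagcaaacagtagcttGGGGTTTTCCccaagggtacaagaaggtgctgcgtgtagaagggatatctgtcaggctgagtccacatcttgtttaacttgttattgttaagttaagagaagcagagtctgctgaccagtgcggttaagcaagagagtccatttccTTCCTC
Axl: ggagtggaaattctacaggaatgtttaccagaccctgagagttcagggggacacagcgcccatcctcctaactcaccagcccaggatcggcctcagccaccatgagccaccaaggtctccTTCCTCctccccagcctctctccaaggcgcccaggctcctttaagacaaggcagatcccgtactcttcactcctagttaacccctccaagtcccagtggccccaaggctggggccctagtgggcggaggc
Gas6: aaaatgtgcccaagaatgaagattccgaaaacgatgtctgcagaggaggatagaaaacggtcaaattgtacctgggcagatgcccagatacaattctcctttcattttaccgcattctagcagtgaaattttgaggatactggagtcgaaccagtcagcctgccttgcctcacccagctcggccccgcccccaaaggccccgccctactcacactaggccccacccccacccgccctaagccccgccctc

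The motifs searched were GAS (TTCNNNGAA, the STAT element), AP-1 (TGANTCA), the PU.1 core (GAGGAA), an ISRE core (GAAA and GAAA with any 2 bases between) and NF-kB by name. Over 32817 promoters of the same length, 7.01% held GAS, 6.75% AP-1, 23.3% the PU.1 core, 2.97% the ISRE core and 7.25% NF-kB. Fcgr1 held a GAS match 109 bases before the start and a PU.1 core 55 bases before it, on the opposite strand. Fcgr4 held an NF-kB match, the ISRE core 73 bases before the start and a PU.1 core, and Fcgr3 held an NF-kB match and a PU.1 core 6 bases before its start. The Fcgr3 window lay inside the longer deposited gene body, and RefSeq gave 2 models of its start. Axl held a PU.1 core 130 bases before its start, and Gas6 held none of the motifs in this window. Among the promoters not printed, Tyro3 held NF-kB, Pros1 held GAS, and Fcgr2b, Fcer1g and Mertk held none of these letters. No match overlapped another motif, and a match is only a description of the letters.

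Library totals ranged from 14151983 to 28564757 counts with a median of 21640054.5. The microglial markers Csf1r and Aif1 were present in every group, and the summed level of the microglial list was 1520 to 3125 CPM (counts scaled to library size, adjusted by the TMM normalization factors) in the cultures and 4218 to 4991 CPM in Protocol 3. Siglech reached group means of 438 and 427 CPM in Protocol 3 and at most 0.596 CPM in any culture group, and Tmem119 and P2ry12 were also lower in the cultures than in Protocol 3. The neutrophil list summed to 342 to 725 CPM in Protocol 3 and to at most 75.9 CPM elsewhere, where S100a9, Ly6g and Retnlg were at or near 0. The fibroblast and mural list summed to 189 to 380 CPM in Protocol 2 and to at most 97.6 CPM elsewhere. The part of these cells in the levels described here was not tested, and in bulk RNA fewer cells of a type and less RNA per cell cannot be told apart. Each edgeR p-value sets a difference against the spread between libraries within groups of 3. That spread was estimated over all libraries of the fit and drawn toward that of other genes. Fits with a replicate block used the spread left after the block.

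Levels of the 10 genes differed widely between preparations. The highest group mean of Fcgr4 was 73.0 times the lowest, and the same range was 27.9-fold for Fcgr1, 21.8-fold for Axl, 17.9-fold for Gas6 and 12.97-fold for Fcgr2b. Pros1 (8.63-fold), Fcer1g (4.98-fold), Fcgr3 (4.76-fold) and Mertk (4.47-fold) varied less. On the per-length scale (RPKM, the CPM divided by gene length in kilobases), on which genes can be compared, Fcer1g had the highest level of the 10 genes in every group, with group means of 273 to 1358 RPKM. Tyro3 had the lowest level in every group, at no more than 1.01 RPKM, and rested on 0 to 55 counts per library in Protocol 1, so its 58.0-fold range was that of a gene near the detection limit.

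The order of the group levels differed between members. Fcgr1 was highest in Protocol 2 Controls at 887 ± 146 CPM (SD, n = 3) and with HMGB1 in Protocol 2 (842 ± 134 CPM) and Protocol 1C (759 ± 147 CPM), which overlapped one another. After a gap, a run of overlapping neonate-derived groups went from HMGB1 in Protocol 1B (321 ± 54.0 CPM) down to the Controls of Protocol 1A (145 ± 62.9 CPM). Below these the Controls of Protocol 1B (57.5 ± 6.34 CPM) and the overlapping arms of Protocol 3 stood apart. Fcgr4 had the same top and bottom groups, from 314 ± 86.7 CPM with HMGB1 in Protocol 1C to 4.88 ± 0.456 and 4.30 ± 0.731 CPM in the HMGB1 and Control arms of Protocol 3. Axl was highest with HMGB1 in Protocol 1C (1624 ± 140 CPM) and Protocol 1A (993 ± 94.7 CPM). The Axl levels of both arms of Protocols 2 and 3 and of treated Protocol 1B formed a run of overlapping neighbours between group means of 226 and 262 CPM, and Controls of Protocol 1B stood alone below them at 74.6 ± 1.497 CPM. Mertk had its highest level with HMGB1 in Protocol 1C (368 ± 34.7 CPM), and from the Controls of Protocol 1C (111 ± 2.24 CPM) downward its 5 lowest groups overlapped their neighbours. Gas6 ran from 1385 ± 141 CPM in Controls of Protocol 1B, apart from all others, through Protocol 2 Controls (736 ± 26.3 CPM) to the overlapping arms of Protocol 3 (87.3 ± 13.7 and 77.4 ± 6.86 CPM).

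**Figure D1:**
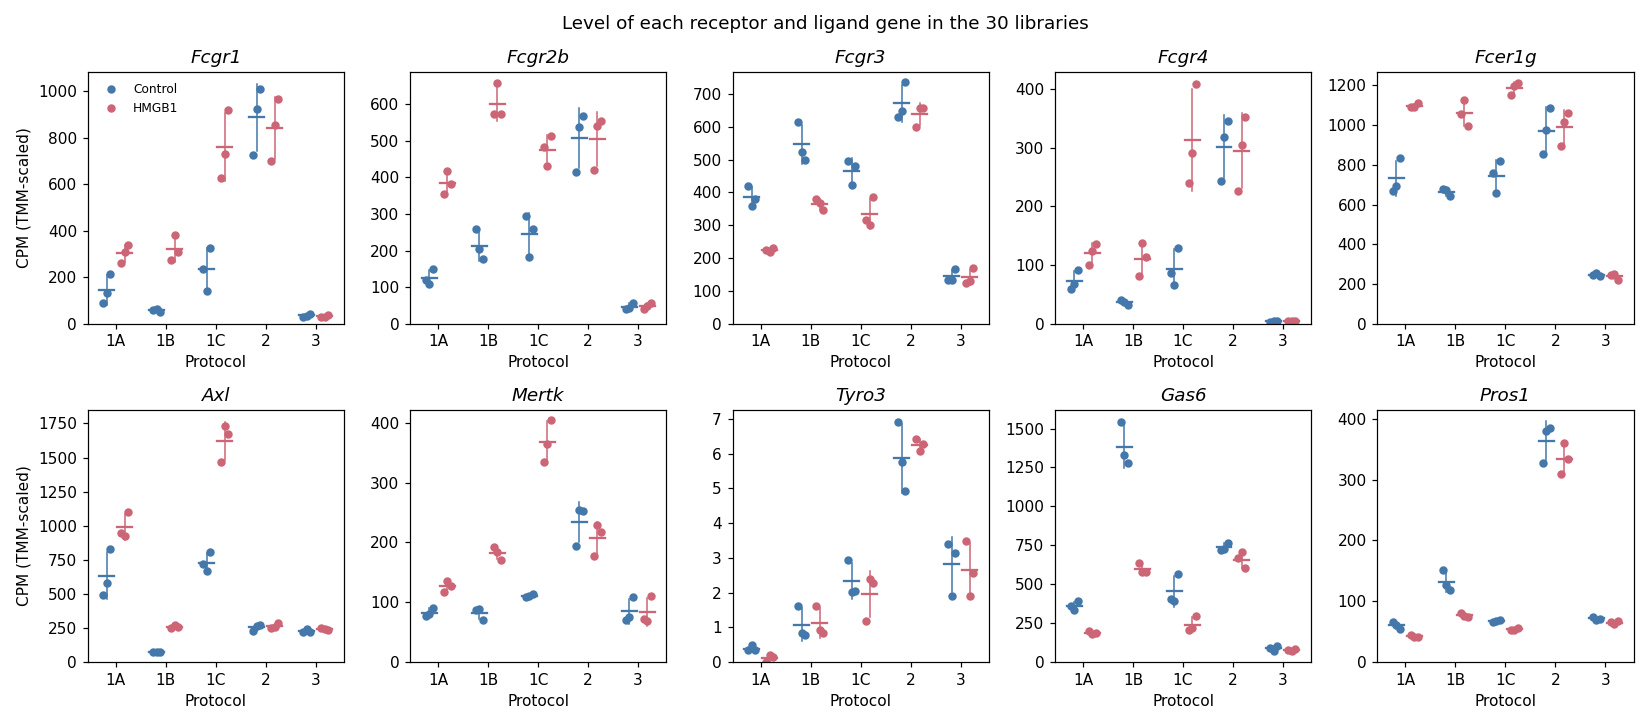
Level of each of the 10 genes in every library, as TMM-scaled CPM on a linear axis from 0, for the 5 protocols, with 1 point per library (Control in blue, HMGB1 in red), horizontal lines for group means and vertical lines for ± 1 SD (n = 3). Fcgr1, Fcgr4 and Fcgr2b were lowest in Protocol 3, Axl was lowest in the Controls of Protocol 1B, and the Protocol 2 and Protocol 3 arms lie beside each other.

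In each variant of Protocol 1, HMGB1 treatment raised the inhibitory receptor, the gamma chain, Fcgr4, Axl and Mertk, and lowered Fcgr3, Gas6 and Pros1. In edgeR's quasi-likelihood test, with p-values adjusted by Benjamini-Hochberg over all genes tested and a threshold of 0.05, 5 of the 9 genes tested rose and 3 fell in Protocol 1A, where 29.7% of all genes rose and 31.6% fell. In Protocol 1B, 6 of the 10 genes rose and 3 fell, against 29.8% and 32% of all genes. In Protocol 1C, 6 rose and 3 fell, against 28.4% and 31.8%. The median log2 fold change of the tested genes was 0.62, 0.94 and 0.84 in Protocols 1A, 1B and 1C, beside medians over all genes of -0.04, -0.02 and -0.04. Scaling by total counts instead of TMM moved the medians over all genes to -0.46, -0.49 and -0.65, and changes are given relative to the TMM scale.

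Fcgr1, the high-affinity IgG receptor, showed its largest change in Protocol 1B. Its Control level there was 59.2, 62.8 and 50.5 CPM, and with HMGB1 it was 275, 380.4 and 306 CPM. Every treated library was thus far above every Control, and the log2 fold change was 2.51 (SE 0.143, adjusted p = 1.35e-06, edgeR). In Protocol 1C the level was 234, 141 and 326 CPM in Controls and 629, 729 and 918 CPM with HMGB1, which gave a log2 change of 1.72 (SE 0.326, adjusted p = 0.00504). In Protocol 1A it was 89.6, 132 and 213 CPM in Controls and 262, 308 and 337 CPM with HMGB1. The arms did not overlap in Protocol 1A either, but the Controls were spread and the log2 fold change of 1.08 (SE 0.358) did not pass the test (adjusted p = 0.0592, edgeR). Without the third Control library, the highest of them, it was 1.46 and passed (adjusted p = 0.00514). The DESeq2 Wald test also called it in Protocol 1A (adjusted p = 0.00633).

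Fcgr4, the activating receptor for IgG2 subclasses, followed a similar course at a lower level. In Protocol 1C its level was 87.1, 65.2 and 129 CPM in Controls and 239.9, 292 and 409 CPM with HMGB1, for a log2 change of 1.76 (SE 0.317, adjusted p = 0.00426, edgeR). In Protocol 1B it rose from 39.9, 36.7 and 32.4 CPM to 80.8, 137 and 113 CPM, a log2 fold change of 1.63 (SE 0.203, adjusted p = 0.000469). The arms were apart in both variants, with the treated libraries more scattered than the Controls. In Protocol 1A the log2 fold change was 0.72 (SE 0.197, adjusted p = 0.0253), from 59.6, 68.0 and 92.1 CPM to 99.9, 124 and 136 CPM. That call was lost without the second Control (adjusted p = 0.0892), the second HMGB1 (0.0818) or the third HMGB1 library (0.0567) and with total counts.

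Fcgr3, the low-affinity activating receptor, went the other way. It fell from 420.5, 359.7 and 381 CPM to 224, 218 and 229.5 CPM in Protocol 1A, a log2 fold change of -0.78 (SE 0.0733, adjusted p = 5.17e-07, edgeR). In Protocol 1B it fell from 615, 524 and 499.8 CPM to 379, 368 and 345 CPM, a log2 fold change of -0.56 (SE 0.0821, adjusted p = 0.000153). Protocol 1C showed the smallest fall, from 496, 422 and 479 CPM to 316, 301 and 385 CPM (log2 fold change -0.45, SE 0.114, adjusted p = 0.00454). All treated libraries were below all Controls in each variant. Fcgr3 and Fcgr2b share sequence, with 9.58% of the 50-base windows of Fcgr3 also found in Fcgr2b and none at 150 bases, so a small part of their short reads could be split between them.

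Fcgr2b, the inhibitory receptor, rose in all variants of Protocol 1. Its level in Protocol 1A was 118, 108 and 148 CPM in Controls and 356, 418 and 381 CPM with HMGB1, for a log2 change of 1.64 (SE 0.109, adjusted p = 4.37e-07, edgeR). In Protocol 1B it rose from 258, 204 and 176 CPM to 573, 658 and 575 CPM (1.53, SE 0.137, adjusted p = 2.09e-05), and in Protocol 1C from 295, 181 and 259 CPM to 483.5, 431 and 513 CPM (0.98, SE 0.163, adjusted p = 0.000478). The lowest treated library stood above the highest Control in each variant. The inhibitory-to-activating ratio was taken as Fcgr2b over the sum of Fcgr1, Fcgr3 and Fcgr4, per length. In Protocol 1A it was 0.0629, 0.0595 and 0.0684 in Controls and 0.198, 0.211 and 0.178 with HMGB1, so its log2 difference was 1.62. In Protocol 1B the log2 difference was 1.31, and in both variants every treated library was higher than every Control, with a two-sided exact permutation p of 0.1, the smallest that 3 against 3 libraries allow. In Protocol 1C the arms overlapped (log2 difference 0.22, exact permutation p = 0.3). The differences were 0.06 in Protocol 2 (exact permutation p = 0.4) and 0.10 in Protocol 3 (exact permutation p = 0.3).

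**Figure D2:**
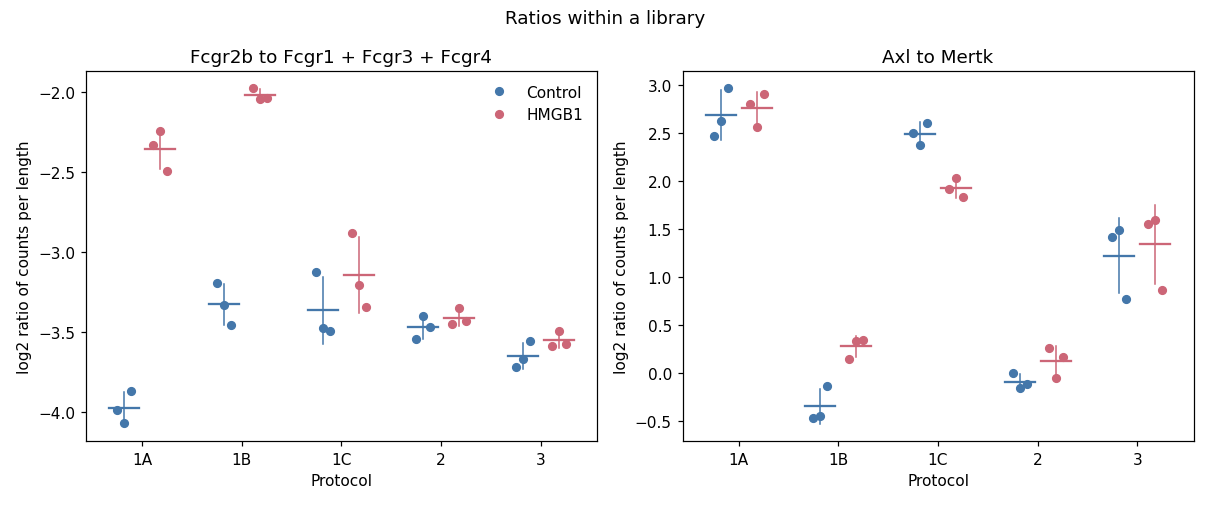
Log2 ratio of Fcgr2b to the summed activating receptors Fcgr1, Fcgr3 and Fcgr4 and of Axl to Mertk, as counts per length, with 1 point per library, horizontal lines for group means and vertical lines for ± 1 SD (n = 3), by protocol and treatment. The first ratio was higher in every treated library of Protocols 1A and 1B, and the second was higher with HMGB1 in Protocol 1B and lower in Protocol 1C.

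Fcer1g, the shared signalling chain, changed less in fold but from a high level. It rose from 669, 695 and 834 CPM to 1091, 1093 and 1111 CPM in Protocol 1A, a log2 fold change of 0.60 (SE 0.0771, adjusted p = 1.36e-05, edgeR). The log2 fold change was 0.70 in Protocol 1B (SE 0.0717, adjusted p = 9.52e-06) and 0.70 in Protocol 1C (SE 0.104, adjusted p = 0.000122). The treated libraries of all variants lay in a narrow band and above all Controls. The Protocol 1C change was 0.07 with total counts (adjusted p = 0.501), on which scale the call was lost.

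Axl, the TAM receptor that binds Gas6, rose in each variant of Protocol 1, from very different Control levels. In Protocol 1B its level was 73.0, 76.0 and 75.0 CPM in Controls and 248, 271 and 253 CPM with HMGB1, for a log2 change of 1.81 (SE 0.0658, adjusted p = 3.22e-09, edgeR). In Protocol 1C it rose from 716, 664 and 804 CPM to 1467, 1735 and 1669.7 CPM, a log2 fold change of 1.18 (SE 0.110, adjusted p = 2.47e-06). The replicates of Protocol 1B agreed closely, and even its treated libraries remained below the Controls of the variants with GM-CSF. In Protocol 1A the levels were 494, 576 and 828 CPM in Controls and 949, 928 and 1101 CPM with HMGB1, for a log2 change of 0.66 (SE 0.205, adjusted p = 0.0387). That call did not hold without the second Control (adjusted p = 0.108), or when the first (0.0993), the second (0.0759) or the third (0.0873) HMGB1 library was left out. It was also lost with total counts and without the filter on low counts.

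Mertk, the TAM receptor most closely tied to engulfment of apoptotic cells, rose as well, most in Protocol 1C. There it went from 109, 110.3 and 113 CPM to 335, 365 and 404 CPM, a log2 fold change of 1.75 (SE 0.0944, adjusted p = 2.30e-08, edgeR). In Protocol 1B it rose from 86.8, 89.0 and 70.9 CPM to 193, 184 and 171 CPM (1.18, SE 0.0919, adjusted p = 1.29e-06), and in Protocol 1A from 77.0, 80.0 and 90.8 CPM to 117, 135 and 127 CPM (0.62, SE 0.0729, adjusted p = 5.06e-06). No treated library reached down to a Control in any variant. The Axl-to-Mertk ratio, per length, was 5.53, 6.20 and 7.85 in Controls of Protocol 1A and 0.725, 0.735 and 0.911 in those of Protocol 1B. With HMGB1 its log2 value rose by 0.63 in Protocol 1B, was lower by a log2 difference of -0.57 in Protocol 1C and differed by 0.07 in Protocol 1A. All libraries of the arms were apart in Protocols 1B and 1C (each exact permutation p = 0.1, the smallest possible) and overlapped in Protocol 1A (exact permutation p = 0.8). Tyro3 was at 0 to 11 counts per library in Protocol 1A, where it was too low to be tested, and did not pass in Protocol 1B (log2 fold change 0.06, adjusted p = 0.917) or Protocol 1C (-0.24, adjusted p = 0.551).

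The TAM ligands both fell in Protocol 1. Gas6, which binds every TAM receptor, had its highest level in the Controls of Protocol 1B at 1545, 1330.3 and 1279 CPM, and with HMGB1 it was 639, 580.1 and 581 CPM, a log2 fold change of -1.18 (SE 0.0814, adjusted p = 4.09e-07, edgeR). It fell from 357, 337 and 389 CPM to 196, 181 and 187 CPM in Protocol 1A (-0.93, SE 0.0690, adjusted p = 4.32e-08) and from 405, 389 and 566 CPM to 206, 221 and 294 CPM in Protocol 1C (-0.89, SE 0.170, adjusted p = 0.00132). The treated levels of Protocol 1B still exceeded the Controls of Protocols 1A and 1C, and no variant had overlapping arms. Pros1, the gene of protein S, fell from 151, 127 and 118 CPM to 81.0, 75.5 and 73.6 CPM in Protocol 1B (log2 fold change -0.76, SE 0.0886, adjusted p = 2.63e-05). Its log2 fold change was -0.50 in Protocol 1A (SE 0.0883, adjusted p = 0.000229) and -0.30 in Protocol 1C (SE 0.0794, adjusted p = 0.00578), again with every treated library below every Control. In neonate-derived cultures the receptors Axl and Mertk therefore rose while both ligands fell.

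Markers of other cell types moved with HMGB1 treatment in the same cultures, and their part in the responses was not tested. The list of 4 monocyte markers summed to 89.9 to 130 CPM in Controls and 227 to 309 CPM with HMGB1 in Protocol 1A, to 2.90 to 5.70 and 7.59 to 16.7 CPM in Protocol 1B, and to 18.7 to 33.0 and 141 to 196 CPM in Protocol 1C. Within that list Vcan and Ly6c2 were higher with HMGB1 in Protocol 1A while Ccr2 went from a mean of 33.3 to 3.53 CPM, and Ly6c2 was at 0 in both arms of Protocol 1B. Vcan made up most of the rise in Protocols 1B (means of 3.46 and 12.6 CPM) and 1C (4.57 and 129.7 CPM). Ccr2 was lower with HMGB1 in both, at 0.444 and 0.269 CPM in Protocol 1B and 3.62 and 1.25 CPM in Protocol 1C. The list of 7 endothelial markers went from 28.3 to 49.96 CPM to 67.3 to 108 CPM in Protocol 1A, from 15.3 to 19.5 CPM to 41.1 to 71.1 CPM in Protocol 1B and from 44.1 to 59.9 CPM to 202 to 304 CPM in Protocol 1C, with Cldn5 at 0 in both arms of Protocols 1B and 1C. The list of 5 oligodendrocyte markers was lower with HMGB1 in Protocols 1A (81.3 to 88.4 against 31.5 to 39.3 CPM) and 1B (68.8 to 73.4 against 25.2 to 64.0 CPM), with Mog at 0 in both arms of Protocol 1A, and its arms overlapped in Protocol 1C. None of the ranges of the monocyte and endothelial lists overlapped between the arms of a variant.

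**Figure D3:**
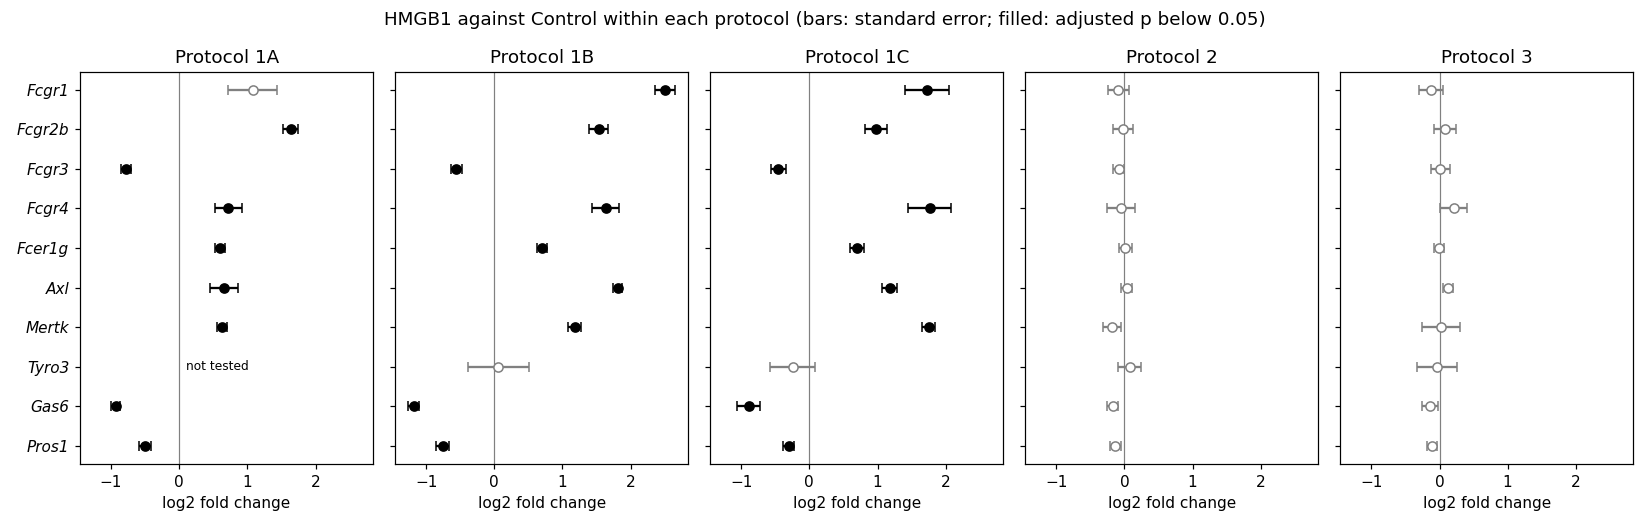
Log2 fold change between HMGB1 and Control libraries for each of the 10 genes and each protocol (edgeR), with bars for the standard error and filled points where the adjusted p was below 0.05. Points for Protocols 1A, 1B and 1C are spread to either side of 0, whereas those for Protocols 2 and 3 lie near 0 and none is filled.

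In adult-derived cells, by contrast, none of the 10 genes passed the test. In Protocol 2 the log2 fold changes ran from -0.18 (Mertk) to 0.08, with a median of -0.07 beside 0.00 over all genes, and 1.49% of all genes were called in either direction. Gas6 alone had an unadjusted p below 0.05 there (adjusted p = 0.490, edgeR), with 719, 723 and 766 CPM in Controls and 667, 706 and 601 CPM with HMGB1. All treated libraries were lower than all Controls for Gas6, by a log2 fold change of -0.17. Libraries of Protocol 2 with the same replicate number deviated together, and with the replicate as a block 3 genes fell, namely Mertk (-0.18, adjusted p = 0.000814), Gas6 (-0.18, adjusted p = 0.00691) and Pros1 (-0.14, adjusted p = 0.0150), where 3.31% of all genes fell and 4.63% rose under the block. Mertk was 195, 253 and 253 CPM in Controls and 178, 228 and 217 CPM with HMGB1, lower within each replicate number although the arms overlapped. In Protocol 3 the changes ran from -0.14 to 0.21 with a median of 0.00 beside -0.01 over all genes, 0.123% of all genes were called, and none of the 10 genes had an unadjusted p below 0.05 or was called by DESeq2. Axl was 219, 244 and 216 CPM in Controls and 245, 241 and 234 CPM with HMGB1, with overlapping arms. Pros1 was the only one with all treated libraries lower (log2 fold change -0.11, not called), at 74.1, 69.8 and 71.4 CPM against 65.3, 62.1 and 67.1 CPM.

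The differences between responses were tested directly, as an interaction over all libraries. Protocol 1 enters these comparisons, and those of Controls across protocols, as the mean of its 3 variants, so comparisons that name the same protocol share its libraries. The response in Protocol 2 differed from that in Protocol 1 for 9 of the 10 genes, 3 with a higher and 6 with a lower log2 response, where 43.6% of all genes differed. The same split was found for Protocol 3 minus Protocol 1, where 42.7% of all genes differed. The differences were -1.86 and -1.91 for Fcgr1 in Protocols 2 and 3, -1.40 and -1.32 for Fcgr2b, and -1.37 and -1.19 for Mertk. Gas6 differed by 0.83 and 0.85 and Fcgr3 by 0.51 and 0.59, and Tyro3 was the gene that did not pass in either. Between Protocols 3 and 2 none of the 10 genes differed (-0.13 to 0.23), and 0.368% of all genes did. Within Protocol 1, the response without GM-CSF (1B) exceeded that of Protocol 1A for Fcgr1 by 1.40 (adjusted p = 0.0340) and Axl by 1.12 (adjusted p = 3.31e-05), which were 2 of the 10 genes, beside 6.9% of all genes. After longer culture (1C minus 1A) the response was larger for Mertk by 1.10 (adjusted p = 0.00170) and Axl by 0.49 (adjusted p = 0.0445), beside 14% of all genes. The Fcgr1 call was lost when any of 8 of the 30 libraries was left out and that for Axl in Protocol 1C for any of 19. Among these, leaving out the third Control of Protocol 1A changed them most, to 1.02 for Fcgr1 (adjusted p = 0.128) and 0.25 for Axl (adjusted p = 0.248). With the replicate number as a block 6 of the 10 genes differed for 1B minus 1A, beside 11.2% of all genes, and 5 for 1C minus 1A, beside 19.5%, although the numbers did not pair the libraries of Protocols 1A and 1C by the criterion used.

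Control cells of the 3 main protocols were compared next, in comparisons where many of all genes differed, namely 55.3% between Protocols 1 and 2, 80.1% between Protocols 1 and 3 and 77.3% between Protocols 2 and 3. The number of members called is therefore near that of all genes in the latter comparisons, and the levels and directions are described. The comparison of Protocol 2 with Protocol 3 set adult-derived cells after culture with GM-CSF and M-CSF against adult cells without a prior culture period. There 9 of the 10 genes were higher in Protocol 2 and none was lower, beside 40.1% and 37.2% of all genes. Fcgr4 was 243, 318 and 346 CPM in Protocol 2 Controls and 3.45, 4.65 and 4.78 CPM in Protocol 3 Controls, a 63.9-fold difference (log2 5.998). Fcgr1 was 727, 924 and 1011 CPM against 28.5, 34.9 and 43.2 CPM (log2 difference 4.51), and Fcgr2b 416, 539 and 568 CPM against 39.7, 42.7 and 56.8 CPM (3.32). The activating and the inhibitory receptors were thus both far apart between these preparations, with no overlap. Gas6 (log2 difference 2.94), Pros1 (2.21), Fcgr3 (2.09), Fcer1g (1.85), Mertk (1.33) and Tyro3 (0.93) were also higher in Protocol 2. Axl was the exception, at 225, 264 and 270.4 CPM in Protocol 2 and 219, 244 and 216 CPM in Protocol 3 (log2 difference 0.03, adjusted p = 0.845, edgeR). The median over the 10 genes was 2.15 beside 0.08 over all genes.

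Compared with Protocol 3, Protocol 1 Controls had 7 genes higher and 1 lower, beside 37.3% and 42.9% of all genes. Fcgr4 (log2 difference 3.78), Gas6 (2.71), Fcgr2b (1.92), Fcgr1 (1.72), Fcgr3 (1.59) and Fcer1g (1.45) were higher in Protocol 1, Tyro3 was lower (-1.59), and Mertk (0.01) and Pros1 (0.09) did not pass. Compared with Protocol 2, Protocol 1 Controls had 1 gene higher and 8 lower, beside 24.6% and 30.7% of all genes. The lower genes included Fcgr1 (-2.79), Tyro3 (-2.52), Fcgr4 (-2.22), Pros1 (-2.12), Fcgr2b (-1.40) and Mertk (-1.32). The medians over the 10 genes were 1.52 against Protocol 3 and -1.36 against Protocol 2, beside -0.12 and -0.02 over all genes. These values averaged unlike variants. Against Protocol 3, Fcgr1 was 0.62 with Protocol 1B alone (adjusted p = 0.126) and Tyro3 -0.36 with Protocol 1C alone (adjusted p = 0.285), so both calls were lost, whereas Pros1 was called at 0.81 with Protocol 1B alone and at -0.36 with Protocol 1A alone. The log2 difference of Axl was 0.40 against Protocol 2 (adjusted p = 0.00574) and 0.43 against Protocol 3 (adjusted p = 0.00205), but with Protocol 1B alone it was -1.70 and -1.67, with Protocol 1A alone 1.35 and 1.38, and with Protocol 1C alone 1.57 and 1.60. Gas6 against Protocol 2 was -0.23 (adjusted p = 0.0578) as the mean of the variants, 0.97 with Protocol 1B alone, -1.001 with 1A alone and -0.66 with 1C alone. Without the third Control of Protocol 1C the mean was -0.29 and passed (adjusted p = 0.00447), and without the third Control of Protocol 3 Mertk passed against Protocol 3 (0.23, adjusted p = 0.0341). Axl and Gas6 therefore lay on opposite sides of the adult cultures depending on the variant.

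**Figure D4:**
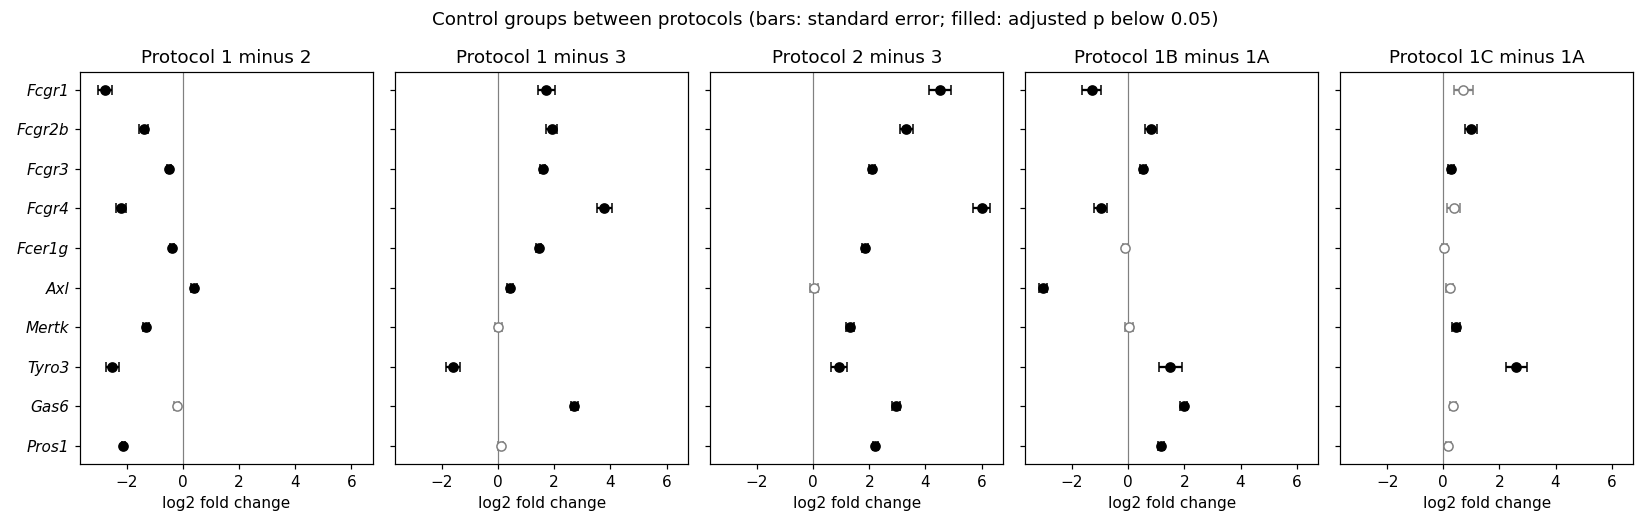
Log2 difference between Control groups for each of the 10 genes (edgeR), for Protocols 1 minus 2, 1 minus 3, 2 minus 3, 1B minus 1A and 1C minus 1A, with bars for the standard error and filled points where the adjusted p was below 0.05. Most Fc receptor genes lie to the right for Protocol 2 minus Protocol 3, and Axl and Gas6 lie on opposite sides for Protocol 1B minus Protocol 1A.

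Within Protocol 1, leaving out GM-CSF was accompanied by a lower level of Axl and a higher level of its ligand. Between Controls of Protocols 1B and 1A, 5 of the 10 genes were higher and 3 lower, beside 18.2% and 12.6% of all genes, with medians of 0.27 and 0.04. Axl was 8.28-fold lower in Protocol 1B (log2 difference -3.05, adjusted p = 2.06e-10, edgeR), whereas Gas6 was 3.92-fold higher (1.97, adjusted p = 2.33e-09) and Pros1 was higher too (1.17, adjusted p = 1.34e-08). Mertk hardly moved (0.02, not called), nor did Fcer1g (-0.11, not called). Among the Fc gamma receptors Fcgr1 (-1.30, adjusted p = 0.0151) and Fcgr4 (-0.98, adjusted p = 0.00878) were lower and Fcgr2b (0.80, adjusted p = 0.0130) and Fcgr3 (0.53) were higher without GM-CSF, as was Tyro3 (1.505), whose call was lost without the first Control of Protocol 1B (adjusted p = 0.0635). The Fcgr1 call was lost without the third Control of Protocol 1A (adjusted p = 0.0628) or of Protocol 1B (0.0606), and the Fcgr2b call without the second Control of 1A (0.0553) or the first of 1B (0.0573). Several marker lists differed between these Controls too, and their part in the differences was not tested. From Protocol 1A to Protocol 1B the sums were lower for monocytes (89.9 to 130 against 2.90 to 5.70 CPM), neutrophils (43.7 to 60.7 against 2.23 to 4.29 CPM), endothelium (28.3 to 49.96 against 15.3 to 19.5 CPM), astrocytes (51.9 to 59.5 against 15.4 to 40.3 CPM) and oligodendrocytes (81.3 to 88.4 against 68.8 to 73.4 CPM). Few genes carried most of these sums. Mmp8 fell from a mean of 48.2 to 2.99 CPM, while in Protocol 1A Controls S100a9 was 0.0743 CPM and Ly6g and Retnlg were at 0. The endothelial sum was mostly Flt1 and Kdr, and the oligodendrocyte sum mostly Mbp. Aldoc fell from 54.0 to 10.6 CPM, whereas the astrocyte markers Gfap (0 to 6.86 CPM) and Gja1 (0.319 to 4.47 CPM) were higher in Protocol 1B. They were higher for the 7 fibroblast and mural markers (2.33 to 3.81 against 27.9 to 91.3 CPM) and the 5 border macrophage markers (456 to 490.1 against 730.5 to 924 CPM). Between Controls of Protocols 1C and 1A, 4 genes were higher and none lower, beside 13.1% and 7.91% of all genes, with medians of 0.36 and 0.04. The fibroblast and mural list was at 47.4 to 97.6 CPM and the border macrophage list at 671 to 721 CPM in Protocol 1C Controls. The 4 genes were Tyro3 (2.60), Fcgr2b (0.99, adjusted p = 0.00548), Mertk (0.44, adjusted p = 0.0356) and Fcgr3 (0.28, adjusted p = 0.0489). Of the 15 fits that each left out 1 Control library, 11 lost the Fcgr3 call (adjusted p up to 0.202) and 6 the Mertk call (adjusted p up to 0.123). Without the third Control of Protocol 1A, Axl (0.45, adjusted p = 0.00317) and Fcgr1 (1.08, adjusted p = 0.0486) were called higher in Protocol 1C as well, and Gas6 was called without the second Control of Protocol 1C (0.44, adjusted p = 0.0207).

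Genes that act with these receptors were described from lists of related genes. Of 15 genes of Fc receptor signalling, HMGB1 raised 8 and lowered 5 in Protocol 1A, raised 7 and lowered 3 of 14 tested in Protocol 1B, and raised 5 and lowered 4 in Protocol 1C. Of all genes, 29.7%, 29.8% and 28.4% rose and 31.6%, 32% and 31.8% fell in Protocols 1A, 1B and 1C. Several counts of this and the following lists were near these shares, and they are given as a description. Syk, the kinase recruited to the ITAM, rose in all variants (log2 fold changes 1.60, 2.17 and 1.56). Inpp5d, the phosphatase SHIP1 that acts downstream of the Fcgr2b ITIM, fell in all variants (-1.43, -1.86 and -2.20), and Tyrobp did not pass in any (0.00, 0.06 and 0.11). In Protocol 2, Syk (0.48) and Vav1 (0.34) rose, beside 1.49% of all genes called in either direction. In Protocol 3 none of the 15 was called, beside 0.123% of all genes. The list medians were 0.36, 0.19 and 0.08 in Protocols 1A, 1B and 1C.

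Among other Fc and antibody receptors, 5 of 12 listed genes could be tested in each variant of Protocol 1, where 2 rose in each and 2, 1 and 2 fell in Protocols 1A, 1B and 1C. For this and the next 2 lists, the shares of all genes were again 29.7%, 29.8% and 28.4% higher and 31.6%, 32% and 31.8% lower in these variants. They were 1.49% in Protocol 2 and 0.123% in Protocol 3 in either direction. Trim21, the cytosolic antibody receptor, rose by 3.21, 4.02 and 3.64 on the log2 scale in Protocols 1A, 1B and 1C and was not called in Protocol 2 (0.10) or Protocol 3 (0.08). Fcrls, a microglial Fc receptor-like gene, was lower in Protocol 2 Controls than in those of Protocol 3 by a log2 difference of -4.23, opposite to the classical receptors, and was not called with HMGB1 in any protocol. The list of other efferocytosis and engulfment genes held 20. HMGB1 raised 5 and lowered 10 of its 17 tested genes in Protocol 1A, raised 4 and lowered 8 of 18 in Protocol 1B, and raised 4 and lowered 6 of 18 in Protocol 1C, with none called in Protocols 2 and 3. The scavenger receptor Msr1 rose (1.21, 1.65 and 1.34), while the lipid-binding receptor Cd300lb (-2.48, -2.35 and -3.56) and the integrin Itgb3 (-0.86, -1.98 and -1.41) fell in all variants. Of 13 genes for TAM ligand carboxylation, receptor shedding and regulation, 5 rose in each variant and 4 of 11, 3 of 12 and 3 of 12 tested fell in Protocols 1A, 1B and 1C. Socs3 (6.25, 7.65 and 7.08) and Adam17 (1.43, 1.69 and 1.37), a protease that sheds Mertk, rose, and the nuclear receptor Rxra (-1.39, -1.96 and -1.95) fell. Adam10, which sheds Axl, was not called in any variant, and in Protocol 2 Nr1h3 (0.87), Socs1 (0.72) and Adam17 (0.28) rose. The medians of the engulfment list were -0.24, -0.17 and -0.09 and those of the carboxylation, shedding and regulation list 0.06, 0.14 and 0.25.

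The genes whose pattern was most like that of each member were taken by Pearson's r of mean log2 CPM over the 10 groups, among 9499 genes, as a description. The groups share protocols, so these values rest on few independent points. Fcgr1 was most like Pgap2 (r = 0.990), H2-T23 (0.985) and B2m (0.984), Fcgr4 most like Tspan31 (0.993) and Fcgr3 most like Ift122 (0.993) and Timp2 (0.992). Fcgr2b was nearest to Gng5 (0.988), and Fcer1g to 9530068E07Rik, Exoc1 and Aoah (each 0.995). Axl had the least close neighbours, with F10 (0.958), Ly75 (0.956) and Ric1 (0.945). Mertk was nearest to Prmt9 (0.971) and Gbp10 (0.966). Gas6 followed Cryz (0.991) and Phactr2 (0.984), and Pros1 followed Lgmn (0.971). Tyro3 was nearest to Kif1a (0.981), a neuronal kinesin, and Col4a1 (0.972), a basement membrane collagen. Between members r was 0.958 for Fcgr1 and Fcgr4, 0.959 for Fcer1g and Fcgr4, 0.933 for Fcgr3 and Gas6, and -0.337 for Axl and Gas6.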

How the data were processed

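The deposited table held gene counts of 30 libraries, 3 in each of 10 groups, with gene positions and length. The submitters' processing notes name HISAT2 2.0.5 for alignment and featureCounts 1.5.0-p3 for counting, and the values deposited by the authors are whole, unnormalized counts. The genome build and the strand setting were not given in the sources used here. Library totals ranged from 14151983 to 28564757.

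Counts were tested with edgeR 4.0.16 (R 4.3.3) by the quasi-likelihood test after filterByExpr, TMM scaling and Benjamini-Hochberg adjustment over all genes tested, with a threshold of 0.05. HMGB1 responses were fitted on the 6 libraries of a protocol, Control comparisons on the 15 Control libraries, and differences between responses on all 30. Protocol 1 was the mean of 1A, 1B and 1C. Levels are TMM-scaled CPM, or RPKM with the deposited length. Ratios were compared by exact two-sided permutation with a pseudocount of 0.5 counts. Likeness used log2 CPM group means with a pseudocount of 0.1 for genes with a mean of at least 10 CPM. The fits were tested on simulated data. Promoter sequences came from RefSeq (GRCm38.p6).

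All 10 members are named, and from each related list the 3 called genes with the smallest adjusted p in a comparison and up to 2 not called could be named, so that values of such a gene in other comparisons are given beside it. Members and lists were chosen with earlier results of these data known. Alternatives were DESeq2 1.42.0 size factors and Wald test, total counts, no filter on low counts, another set of libraries, a minimum fold, a replicate block and leaving out each library. The fits with a single Protocol 1 variant in place of the mean were partly chosen after seeing the data. Replicate numbers in the labels do not state a shared animal or day. The correlations of same-numbered libraries' deviations were 0.176 to 0.409 in Protocol 1B, 0.280 to 0.429 in Protocol 2 and 0.191 to 0.283 in Protocol 3, where they were taken to pair the libraries, and 0.0294 to 0.107 in Protocol 1A and 0.0917 to 0.145 in Protocol 1C, where they were not.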

Additional observations from a re-analysis of the deposited data

Results flagged for a closer look

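The HMGB1 response of 9 genes differed between Protocol 2 and Protocol 1 by the interaction test in edgeR, with log2 differences of -1.86 for Fcgr1, -1.40 for Fcgr2b, 0.51 for Fcgr3, -1.42 for Fcgr4, -0.65 for Fcer1g, -1.18 for Axl, -1.37 for Mertk, 0.83 for Gas6 and 0.39 for Pros1. The same genes differed between Protocol 3 and Protocol 1, by -1.91 for Fcgr1, -1.32 for Fcgr2b, 0.59 for Fcgr3, -1.19 for Fcgr4, -0.69 for Fcer1g, -1.11 for Axl, -1.19 for Mertk, 0.85 for Gas6 and 0.39 for Pros1, and both comparisons use the libraries of Protocol 1. The Fcgr4 call against Protocol 3 was lost without the third Control (adjusted p = 0.0571) or the first HMGB1 library (adjusted p = 0.0515) of Protocol 3. It was also lost with total counts (-0.69, adjusted p = 0.111) and with Protocol 1A alone in place of the mean (-0.56, adjusted p = 0.375). Against Protocol 2 the Fcgr4 call was lost with Protocol 1A alone (-0.79, adjusted p = 0.0878) and that of Fcer1g with total counts (-0.14, adjusted p = 0.142). The Pros1 calls were lost with Protocol 1C alone against Protocol 2 (0.18, adjusted p = 0.245) and Protocol 3 (0.19, adjusted p = 0.232). Total counts brought Tyro3 past the threshold against Protocol 2 (1.22, adjusted p = 0.0104) and Protocol 3 (1.08, adjusted p = 0.0325).

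Within Protocol 1 the response was larger in 1B than in 1A for Fcgr1 (1.40) and Axl (1.12), and larger in 1C than in 1A for Mertk (1.10) and Axl (0.49). The log2 ratio of Axl to Mertk was higher with HMGB1 in every library of Protocol 1B (0.63) and lower in every library of Protocol 1C (-0.57), and this difference between the variants was not tested. Groups of 3 libraries were too small for a search for single outlying libraries.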

How the results depend on the processing

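Called changes of single genes kept their direction and their call in 85 of 86 results each with DESeq2 size factors, the DESeq2 Wald test and no filter on low counts, in 78 of 86 with total counts, and in 1328 of 1386 fits that left out 1 library. For single genes, a direction turned in results called either as reported or under the alternative only with a single Protocol 1 variant in place of the mean, with Protocol 1B alone for Axl against Protocol 2 (-1.70) and Protocol 3 (-1.67) and for Gas6 against Protocol 2 (0.97), and with Protocol 1A alone for Pros1 against Protocol 3 (-0.36). Values called under neither changed sign in 98 of 1574 alternatives of uncalled results. A minimum absolute log2 fold change of 1 left 1 of the genes called in Protocol 1A, 4 in Protocol 1C, 5 between Controls of 1B and 1A, 1 between those of 1C and 1A, 5 each for the responses of Protocols 2 and 3 against Protocol 1, and 1 for the response of 1C against 1A. Total counts left 2 called between Controls of 1C and 1A, where no filter on low counts gave 7, and no filter gave 4 and 5 for the responses of 1B and 1C against 1A, and the cause was not tested. With the replicate number as a block, 3 genes were called in Protocol 2 and 6 and 5 for the responses of 1B and 1C against 1A, and the block also called Fcgr1 in Protocol 1A (adjusted p = 0.0299). It lost none of the 48 calls it was fitted for. Every library correlated best with its own number except in Protocol 1A, where this held for 2 of 3 numbers.

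Leaving out 1 library gave 6 to 9 genes called in Protocol 1A, 9 in each of Protocols 1B and 1C, and 0 in Protocols 2 and 3. It gave 9 to 10 for Controls of Protocol 1 against 2, 8 to 9 against 3, 9 for Protocol 2 against 3, 6 to 8 for 1B against 1A and 2 to 5 for 1C against 1A. For the responses it gave 9 for Protocol 2 against 1, 8 to 9 for 3 against 1, 0 for 3 against 2, 1 to 2 for 1B against 1A and 1 to 3 for 1C against 1A. The Axl-to-Mertk log2 difference ran from -0.045 to 0.21 in Protocol 1A, 0.57 to 0.73 in 1B, -0.63 to -0.51 in 1C, 0.15 to 0.30 in Protocol 2 and -0.11 to 0.35 in Protocol 3. It turned without the first Control (-0.045) or the third HMGB1 library of Protocol 1A and without the third Control (-0.11) or the second HMGB1 library of Protocol 3. The Fcgr2b ratio ran from 1.57 to 1.69 in 1A, 1.25 to 1.38 in 1B, 0.09 to 0.34 in 1C, 0.02 to 0.10 in Protocol 2 and 0.06 to 0.14 in Protocol 3. Depth limited Tyro3, which had too few counts for a test in Protocol 1A.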
